A study of Mus musculus with 2 samples.

Results

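The genes described here are Trp53, which encodes the transcription factor p53, and 8 genes known as p53 targets. The targets are Mdm2, Zmat3, Sesn1, Phlda3, Trp53inp1, Aen, Perp and Btg2, with roles in growth arrest, apoptosis and stress control. These 9 genes were chosen by name, and all were found among the 49492 genes of the read count table. All 9 passed the minimum of 10 counts summed over both libraries, as did 20771 genes in all, and the least counted member, Zmat3, had 952 counts. Mammary basal cells were sorted from wild-type adult female mice, grown in 3D in matrix gel, in medium with EGF and ITS, for 10 days without added cytokine (control) or with recombinant mouse TNF-α at 10 ng/mL, and sequenced in bulk. There was 1 library of each kind, so no difference below has a replicate check and no test between the conditions was possible. The cells are primary cells, and the labels do not say how many mice or cultures entered each library.

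p53 is kept low in resting cells by the ubiquitin ligase Mdm2, whose own gene p53 switches on, so that the factor and its inhibitor form a feedback loop. DNA damage and other stresses release p53 from Mdm2, and p53 then turns on genes that stop the cell cycle, repair DNA, adjust metabolism or start apoptosis. Much of this control acts on the p53 protein, through its stability and phosphorylation, and the values below are transcript amounts only. In the mammary epithelium p53 is known as a tumor suppressor and as a brake on the self-renewal of stem cells.

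The libraries held 44462275 counts (control) and 53487087 counts (TNF-α), and the TMM scale of the TNF-α library was 1.20 times that of the control. Levels are given as CPM (counts scaled to library size), or as CPM per kb of exon where genes are set against each other. Ratios are log2 ratios of TNF-α to control, with a prior count of 2 added. Their 95% Clopper-Pearson intervals cover counting error only, not the spread between cultures. The basal markers Krt5, Krt14 and Acta2 were high in both libraries (1009 CPM or more in the control and 877 or more with TNF-α). So was the luminal keratin Krt8 (1213 CPM in the control and 1132 with TNF-α). Of the other basal markers, Myh11 was highest (2402 and 1677 CPM) and Cnn1 lowest (121 and 72.5 CPM). The 9 luminal markers listed were all lower with TNF-α, from 3518 to 2556 CPM in sum, and 7 of them were past 1.5-fold lower. The 8 basal markers summed to 11973 and 11040 CPM, with 3 higher and 5 lower, of which Cnn1 (-0.74) was past 1.5-fold and Oxtr (-1.19) past 2-fold lower in log2 ratio. In bulk RNA, fewer cells of a type and less RNA per cell cannot be told apart, and the part of these marker differences in the values below was not tested. The 8 leukocyte and macrophage markers summed to 8.32 and 6.54 CPM, with Cd3e at 0 counts in both libraries and Adgre1 at 0 and 2. The 4 endothelial markers summed to 7.07 and 6.67 CPM, and the 6 fibroblast markers to 499 and 486 CPM. The fibroblast markers went both ways, with Dcn past 2-fold higher (184 and 582 counts, log2 ratio 1.39) and Col3a1 past 1.5-fold lower (log2 ratio -0.66).

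The members did not move together between the libraries. Trp53 was higher with TNF-α, Mdm2, Aen, Phlda3 and Trp53inp1 differed by less than their counting error, and Sesn1, Perp, Btg2 and Zmat3 were lower. Past 2-fold there were 0 of 9 members in either direction, where 8.56% of the 20771 genes compared were higher and 6.62% lower. Past 1.5-fold, a log2 ratio of 0.58, there were again 0 of 9 in either direction, against 15.5% of all genes higher and 13.7% lower. Many of those genes had few reads. Among the 9506 genes counted at least as often as Zmat3, 6.99% were past 1.5-fold higher and 5.70% lower. Past 2-fold, 2.68% of them were higher and 2.06% lower. The median log2 ratio of the members was -0.02, and that of all genes compared was 0.0038. The interval for counting error lay wholly above 0 for 1 member and wholly below 0 for 4, against 28.9% and 27.8% of all genes compared. Among the 9506 well-counted genes these shares were 37.5% and 36.9%, so an interval that leaves out 0 was common at this depth and says nothing of the spread between cultures.

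**Figure D1:**
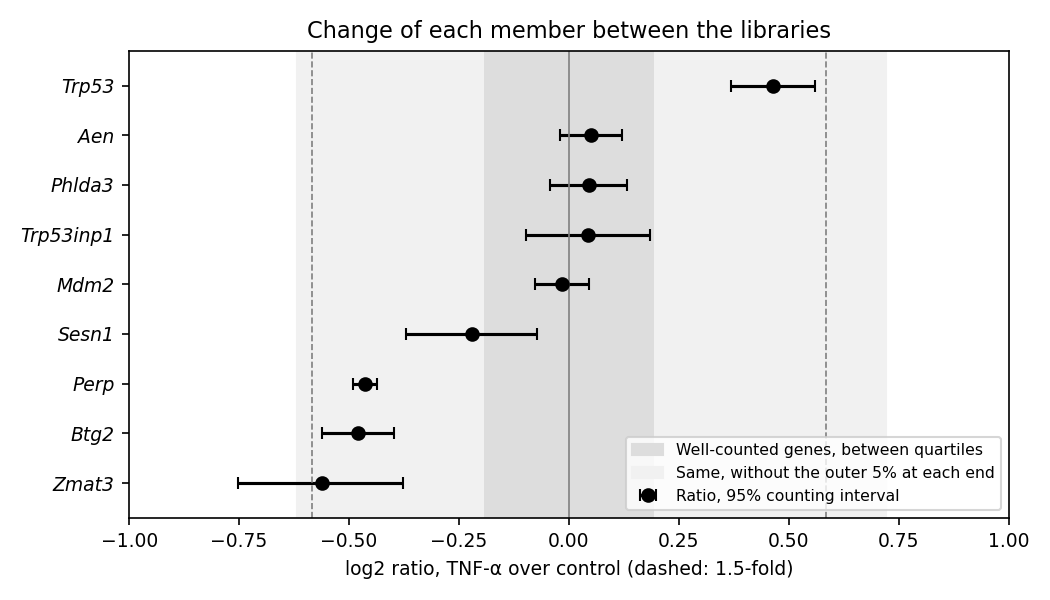
Log2 ratio of TNF-α to control for each member (points), with 95% Clopper-Pearson intervals for counting error (bars), from 1 library per condition. Over the 9506 genes counted at least as often as Zmat3, the dark grey band spans the quartiles and the light grey band leaves out the outer 5% at each end (-0.62 to 0.72), and dashed lines mark 1.5-fold. Trp53 lies above the dark band at 0.46, 4 members lie inside it, and Sesn1, Perp, Btg2 and Zmat3 lie below it with Zmat3 lowest at -0.56.

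Trp53 was the member with the largest increase. It lies on the plus strand of chromosome 11 of GRCm38, from 69580359 to 69591873, and its exons form 7 blocks of 4045 bases. It had 1445 counts without and 2386 counts with TNF-α, or 32.4 and 44.7 CPM. The TNF-α library was thus 1.38-fold higher, with a log2 ratio of 0.46 (95% interval 0.37 to 0.56). This ratio lay at percentile 81.1 of all genes compared, many of which had few reads. Among the 9506 well-counted genes, it lay above the upper quartile of 0.20 and below 0.72, where the outer 5% begins. The pseudogene row Trp53-ps had 0 counts in both libraries, and no exon of another gene in the table overlapped an exon of Trp53.

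The promoter of Trp53 is shown because Trp53 was the only member with an interval wholly above 0 and because TNF-α receptors are known to signal to the transcription factor NF-κB. The window runs from 250 bases before to 50 bases after the start of transcription (RefSeq, GRCm38.p6, chr11:69580109-69580408, plus strand), and the capitals mark an exact match to the NF-κB consensus.
Trp53 promoter: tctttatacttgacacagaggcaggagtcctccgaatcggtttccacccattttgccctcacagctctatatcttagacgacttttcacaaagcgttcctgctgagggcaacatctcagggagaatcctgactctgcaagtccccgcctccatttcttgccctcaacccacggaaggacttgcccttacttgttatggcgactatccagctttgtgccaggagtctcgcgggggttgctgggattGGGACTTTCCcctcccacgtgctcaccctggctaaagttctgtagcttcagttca
The match begins 5 bases before the start and spans it. Both strands were searched, and 8.46% of the 32851 promoter windows of the same length hold such a match. Of the 8 windows found for 6 members (Aen and Sesn1 have 2 each), only this one did. Zmat3, Trp53inp1 and Perp have no window in the table used. The same bases, chr11:69580354-69580363, also lie in a window of Wrap53, a gene on the opposite strand with 103 bases between it and Trp53. Wrap53 had 111 counts in the control and 134 with TNF-α, which gave a log2 ratio of 0.01 (95% interval -0.36 to 0.39). A match is a description of the letters and does not show binding, and a link between it and the Trp53 ratio was not tested.

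The 8 windows of members were also searched for the p53 consensus site of 20 positions, on both strands and with no spacer between its repeats. The best windows of Trp53, Aen and Sesn1 met the consensus at 17 positions, which 6.29% of all promoter windows reach or pass. That of Btg2 met it at 16 positions, as did 30.2% of windows or better. Those of Mdm2 and Phlda3 met it at 15 positions, as did 76.6% of windows or better. The windows of Trp53, Aen, Sesn1, Btg2 and Mdm2 are shown. Each is written on the strand of its gene (minus for Btg2 and Mdm2), and the capitals mark the core of each repeat, whether or not its letters meet the consensus.
Trp53, chr11:69580284-69580303: ggaCTTGcccttaCTTGtta
Aen, chr7:78895937-78895956: gggCTTGtccgggCAAGgag
Sesn1, chr10:41887266-41887285: aagCTTGtttttgCTGGcct
Btg2, chr1:134079112-134079131: gggAAAGtccgggCAGAgcc
Mdm2, chr10:117710925-117710944: gaaCTTGcctagcGACCatt
None of these windows met all positions, and they cover promoters only, whereas known p53 sites often lie in introns, as in Mdm2. The window of Trp53 does not overlap its NF-κB match. With 17 matched positions in the best window of each, Trp53 was higher, Aen differed little and Sesn1 was lower. Whether these windows bear on the ratios was not tested.

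Mdm2, the ubiquitin ligase that marks p53 for breakdown, had almost the same level in both libraries. It lies on the minus strand of chromosome 10, from 117688888 to 117710758, in 9 exon blocks. It had 4010 counts in the control and 4747 with TNF-α, or 90.0 and 89.0 CPM. The log2 ratio was -0.02 (95% interval -0.08 to 0.04). Per kb of exon, Mdm2 was at 2.21 times the level of Trp53 in the control and at 1.59 times with TNF-α. Mdm4, the relative of Mdm2 that binds p53 without being a strong ligase of its own, had 4158 and 4900 counts, also with a log2 ratio of -0.02 (95% interval -0.08 to 0.04). The Mdm2 level per kb was 2.81 times that of Mdm4 in the control and 2.83 times with TNF-α.

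Of the targets, 3 differed little between the libraries. Aen, a nuclease of the cell nucleus and nucleolus that takes part in p53-dependent apoptosis, lies on the plus strand of chromosome 7, from 78895854 to 78911209. It had 2912 and 3608 counts, or 65.3 CPM in the control and 67.6 CPM with TNF-α, and a log2 ratio of 0.05 (95% interval -0.02 to 0.12). Phlda3, which encodes a small lipid-binding protein that keeps the kinase AKT from the membrane, lies on the plus strand of chromosome 1, from 135766119 to 135769136. It had 1882 and 2324 counts, or 42.2 and 43.6 CPM, which gave a log2 ratio of 0.04 (95% interval -0.04 to 0.13). Trp53inp1, a stress protein that promotes p53 activity and autophagy, lies on the plus strand of chromosome 4, from 11156431 to 11174379. It had 754 and 930 counts, or 16.9 and 17.4 CPM, which gave a log2 ratio of 0.04 (95% interval -0.10 to 0.18). The intervals of all 3 include 0.

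The other 4 targets were lower with TNF-α. Zmat3, a zinc-finger protein that binds RNA, had the lowest ratio of the members. It lies on the minus strand of chromosome 3, from 32334792 to 32366014, with 11435 bases of exon. It had 526 counts in the control and 426 with TNF-α, or 11.8 and 7.98 CPM. The control library was 1.48-fold higher, which gave a log2 ratio of -0.56 (95% interval -0.75 to -0.38), and this interval reaches past 1.5-fold. Btg2, an antiproliferative protein that recruits the machinery that shortens mRNA tails, lies on the minus strand of chromosome 1, from 134075170 to 134079120, in 2 exon blocks. It had 2590 and 2223 counts, or 58.1 and 41.7 CPM, and was 1.39-fold higher in the control, which gave a log2 ratio of -0.48 (95% interval -0.56 to -0.40).

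Perp, a membrane protein that p53 induces in apoptosis and that is also a part of desmosomes, was by far the most abundant member. It lies on the plus strand of chromosome 10, from 18845020 to 18857073. It had 23342 counts in the control and 20256 with TNF-α, or 524 and 380 CPM. Perp was 1.38-fold higher in the control, which gave a log2 ratio of -0.46 (95% interval -0.49 to -0.44). In stratified epithelia Perp is known as a target of p63, the p53 relative encoded by Trp63. Trp63 had 9329 and 11400 counts, or 209 and 214 CPM, which gave a log2 ratio of 0.03 (95% interval -0.01 to 0.07). Sesn1, one of the sestrins, which sense oxidative stress and leucine and hold back the growth kinase mTORC1, was lower by less than the other 3 genes. It lies on the plus strand of chromosome 10, from 41809935 to 41908424, and had 734 and 754 counts, or 16.5 and 14.1 CPM. Its log2 ratio was -0.22 (95% interval -0.37 to -0.07).

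Ordered by ratio, the neighbours whose counting intervals did not overlap were Trp53 and Aen, which differed by 0.41 in log2 ratio, and Sesn1 and Perp, which differed by 0.24. The intervals of Aen, Phlda3, Trp53inp1 and Mdm2 overlapped from one neighbour to the next, as did those of Perp, Btg2 and Zmat3, and that of Sesn1 overlapped with that of Mdm2. Even counts were in excess, with 2172 genes at 2 counts and 618 at 1 count in the control, and whether both ends of each read pair were counted was not tested. Counting both ends would make these intervals too narrow. With the counts divided by 2, the interval of Sesn1 ran from -0.43 to -0.0097 and overlapped that of Perp (-0.50 to -0.43), while that of Trp53 (0.33 to 0.60) still lay above that of Aen (-0.05 to 0.15). The intervals of 1 member above 0 and of 4 members below 0 still left out 0.

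**Figure D2:**
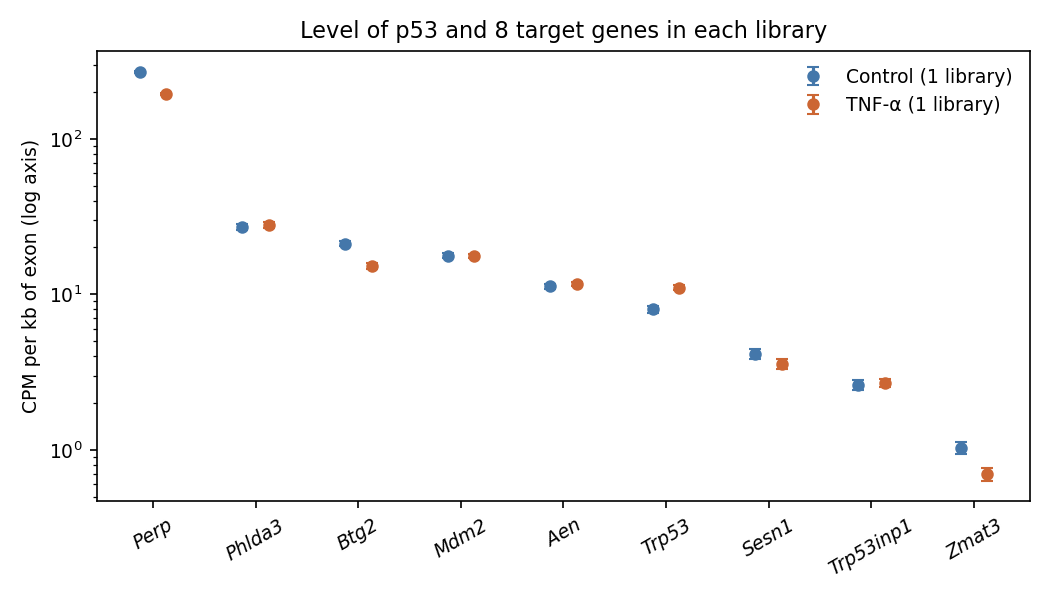
Level of each member in CPM per kb of exon (log axis) in the control library (blue) and the TNF-α library (orange), with exact 95% Poisson intervals for counting error, from 1 library each. Perp stands apart at 268 in the control and 194 with TNF-α, and Zmat3 is lowest at 1.03 and 0.698.

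The members spanned a wide range of levels. In CPM per kb, Perp was at 268 in the control and 194 with TNF-α, and its mean over the libraries lay at percentile 99.0 of the genes compared. Phlda3 followed at 27.1 and 27.9. Btg2 was at 21.2 in the control, above Mdm2 at 17.7, and the order turned with TNF-α, with Mdm2 at 17.5 and Btg2 at 15.2. Aen was at 11.3 in the control, above Trp53 at 8.02. With TNF-α they were at 11.7 and 11.1, and this was the only pair of neighbours in either order of levels whose counting intervals overlapped. Sesn1 was at 4.14 and 3.55, and Trp53inp1 at 2.61 and 2.69. Zmat3 was lowest at 1.03 and 0.698, and its mean lay at percentile 31.7. These levels depend on the exon length in the table, which joins the exons of all transcripts of a gene, so a gene with a long rare exon such as a long last exon has its level understated.

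The relatives of the members show how paralogs of 1 family differed. For comparison with this and the later lists, 50.6% of all genes compared were higher. Past 2-fold, 8.56% of all genes were higher and 6.62% lower, and past 1.5-fold 15.5% and 13.7%. Of the 15 genes listed as p53 family members or paralogs of the members, 14 were compared, with 7 higher, 7 lower and a median log2 ratio of 0.0033. None was past 2-fold, and 1 was past 1.5-fold higher. That gene was Isg20, an interferon-induced nuclease of the same family as Aen and its neighbour on chromosome 7, from 78913424 to 78920396 on the same strand. Isg20 had 355 counts in the control and 805 with TNF-α, or 7.97 and 15.1 CPM, which gave a log2 ratio of 0.92 (95% interval 0.74 to 1.11). Aen, which ends 2214 bases before it, was at 0.05. The lowest was Sesn3, the sestrin with the most counts here, with 4847 and 4033 counts and a log2 ratio of -0.52 (95% interval -0.59 to -0.46). Sesn2 had 306 and 315 counts and a log2 ratio of -0.22, so the 3 sestrins all had ratios below 0, although the interval of Sesn2 (-0.45 to 0.01) includes it. Trp73, the other p53 relative, had 250 and 349 counts and a log2 ratio of 0.22 (95% interval -0.02 to 0.46). Per kb, Trp63 was at 3.11 times the level of Trp53 in the control and 2.30 times with TNF-α.

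Of the 12 other regulators of p53 listed (ligases, a deubiquitinase and related genes), 4 were higher and 8 lower, with a median of -0.14. Cdkn2a was past 2-fold higher and was the only one past 1.5-fold higher, with 134 counts in the control and 676 with TNF-α, or 3.01 and 12.7 CPM. Its log2 ratio was 2.06 (95% interval 1.81 to 2.35). Cdkn2a lies on chromosome 4, from 89274471 to 89294653, and encodes both the CDK inhibitor p16 and the Arf protein, which holds Mdm2 away from p53. Counts per gene do not tell these transcripts apart. The lowest with at least 200 counts was the ligase gene Cop1, listed as Rfwd2, with 5074 and 4599 counts and a log2 ratio of -0.40 (95% interval -0.46 to -0.34). Trp53cor1, a long noncoding RNA named after its values were seen, was past 1.5-fold lower at 16 and 12 counts, with an interval that includes 0 (-1.89 to 0.50).

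Of the 16 activators and cofactors, from the damage kinases Atm and Atr to the acetyltransferases Ep300 and Crebbp, 7 were higher and 9 lower, with a median of -0.05. Hipk2, a kinase that phosphorylates p53 under strong damage, was the only one past 1.5-fold and also past 2-fold. It had 3257 counts in the control and 1864 with TNF-α, or 73.1 and 34.9 CPM, which gave a log2 ratio of -1.06 (95% interval -1.15 to -0.98). The highest was Npm1, which encodes the nucleolar protein nucleophosmin, at 0.34 (95% interval 0.33 to 0.36) with 55410 and 84042 counts.

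**Figure D3:**
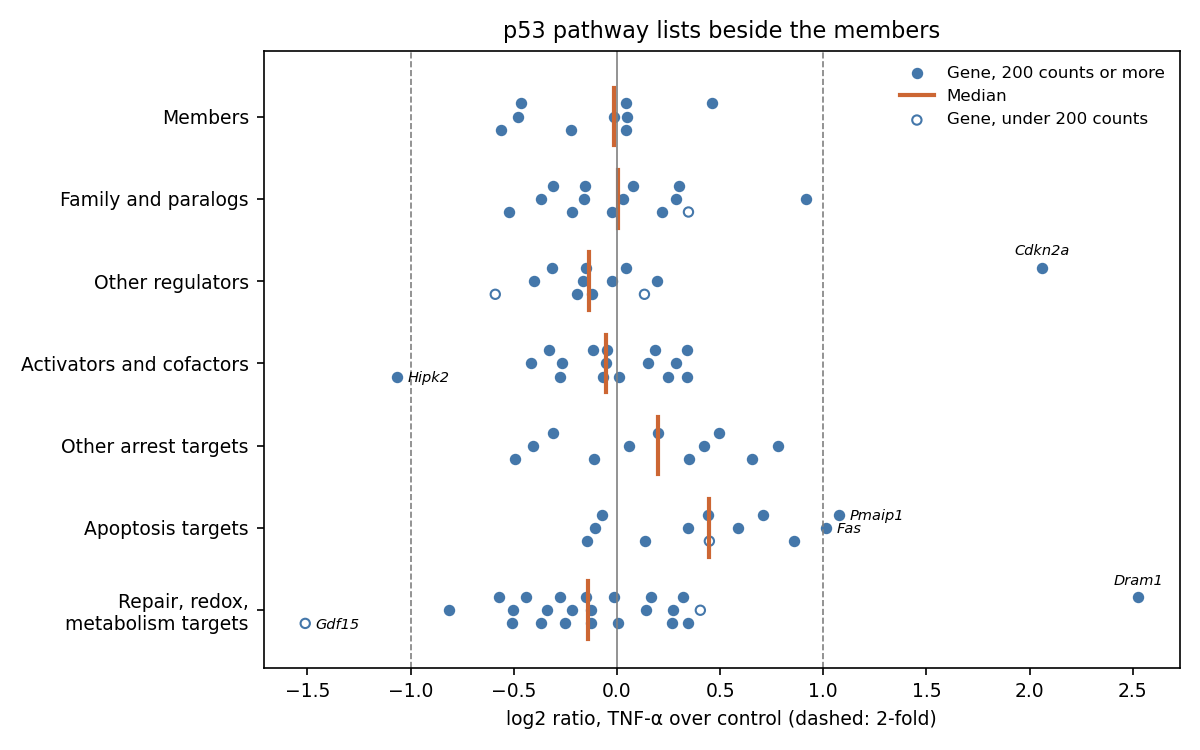
Log2 ratio of TNF-α to control for the members and for each gene of 6 lists of the p53 pathway (points, filled at 200 counts or more summed over both libraries), with the median of each list (orange) and dashed lines at 2-fold. The members lie between -0.56 and 0.46, the apoptosis targets have the highest median at 0.44, and Dram1 and Cdkn2a lie farthest to the right at 2.53 and 2.06.

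The arrest targets outside the members were split as well. Of 12 listed, 11 were compared, with 7 higher and 4 lower and a median of 0.20, and 2 were past 1.5-fold higher, with 0 past 2-fold. Cdkn1a, which encodes the CDK inhibitor p21, the best known arrest effector of p53, was the lowest. It had 914 counts in the control and 776 with TNF-α, or 20.5 and 14.5 CPM, which gave a log2 ratio of -0.49 (95% interval -0.64 to -0.36). This is close to the ratios of Btg2 and Perp. The highest was Ckap2, which encodes a protein of the mitotic spindle, with 779 and 1604 counts and a log2 ratio of 0.78 (95% interval 0.66 to 0.91). The other gene past 1.5-fold, Psrc1, which also acts at the spindle and was named after its values were seen, had a log2 ratio of 0.65 (95% interval 0.51 to 0.80). Both are known foremost for their part in mitosis.

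The 12 apoptosis targets had the highest median of the lists, 0.44, with 9 higher and 3 lower. Of these, 2 were past 2-fold higher and 5 past 1.5-fold higher, with 0 past 1.5-fold lower. The shares over all genes compared were 8.56%, 15.5% and 13.7%. Pmaip1, which encodes the BH3-only protein Noxa, had 315 counts in the control and 797 with TNF-α, which gave a log2 ratio of 1.08 (95% interval 0.89 to 1.27). Fas, which encodes a death receptor of the TNF receptor superfamily, had 563 and 1362 counts, which gave a log2 ratio of 1.01 (95% interval 0.87 to 1.16). The lowest, Ei24, an endoplasmic reticulum protein, was at -0.15 (95% interval -0.20 to -0.09).

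Of the 24 targets in repair, redox control and metabolism, 9 were higher and 15 lower, with a median of -0.14. Of all genes compared, 50.6% were higher. Dram1, which encodes a lysosomal membrane protein of autophagy, was far above the rest. It had 497 counts in the control and 3438 with TNF-α, or 11.2 and 64.4 CPM, which gave a log2 ratio of 2.53 (95% interval 2.39 to 2.67). No other gene of the list was past 1.5-fold higher, and 2 were past 1.5-fold lower. The lowest with at least 200 counts was Aldh4a1, a mitochondrial enzyme of proline breakdown, at -0.81 (95% interval -1.02 to -0.62) with 505 and 343 counts. Gdf15, a secreted stress protein named after its values were seen, was past 2-fold lower at 70 and 28 counts, which gave a log2 ratio of -1.51 (95% interval -2.27 to -0.93). Over the 47 targets compared that are no member, 25 were higher and 22 lower, with a median of 0.06. Past 2-fold, 3 were higher and 1 lower, against 8.56% and 6.62% of all genes compared. Past 1.5-fold, 8 were higher and 2 lower, against 15.5% and 13.7%. Among the 9506 well-counted genes, 2.68% were past 2-fold higher and 2.06% lower, and 6.99% and 5.70% were past 1.5-fold.

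**Figure D4:**
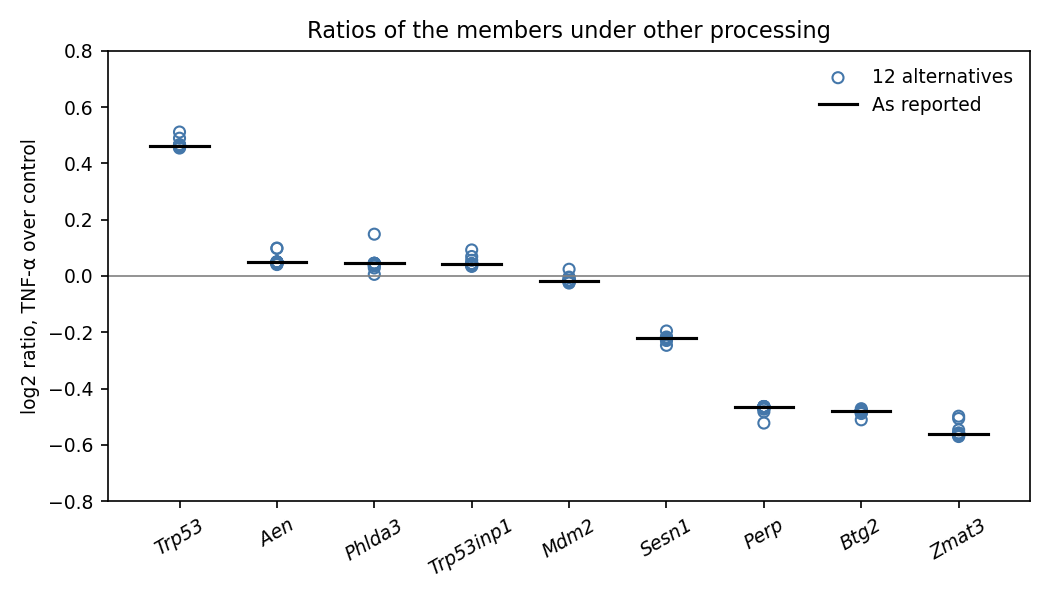
Log2 ratio of TNF-α to control of each member as reported (black bars) and under 12 other ways of processing the counts (circles). The order of Trp53, the middle members and the lower members is the same throughout, and the circles of Mdm2 lie on both sides of 0, from -0.03 to 0.02.

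The ratios of the members changed little with the processing. Under 12 other settings, which changed the scaling, the filter, the prior count, the depth or a length or GC correction, Trp53 lay between 0.45 and 0.51 and Zmat3 between -0.57 and -0.50. Perp lay between -0.52 and -0.46, Btg2 between -0.51 and -0.47, and Sesn1 between -0.25 and -0.20. Mdm2 changed sign under 1 alternative, and the other 8 members kept theirs under all 12.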

How the data were processed

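Bulk RNA-seq of 3D cultures of mouse mammary basal cells was used, with 1 control and 1 TNF-α library. The authors deposited raw read counts, 1 column per library, with exon coordinates, strand and summed exon length in the layout of a featureCounts table. The submitters' processing notes name GRCm38 and mm10, while the aligner, counting tool, annotation and strand setting are not given in the sources used here. The series title speaks of a microarray, but the values are whole read counts. The labels name an RNeasy kit and the study's methods another RNA reagent. Of 47240 gene names shared with GENCODE M21 on GRCm38, 90.9% had the same span.

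From these counts, library sizes were scaled by TMM in edgeR (version 4.0.16, R 4.3.3) over the genes that reached 10 counts in the libraries together. Log2 ratios of CPM used a prior count of 2. Intervals are 95% Clopper-Pearson intervals of the share of reads, and leave out PCR duplication, since no molecular identifiers are described, as well as the spread between cultures. Without replicates the quasi-likelihood test could not be fitted, and no p-value is given. A count of 10 is worth 0.225 CPM in the control and 0.187 CPM in the TNF-α library. The steps were tested on simulated Poisson counts. These hold no spread between cultures, no duplicates and no reads counted at both ends, so the intervals were not tested against them. Promoters came from RefSeq on GRCm38.p6.

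Named genes are the 9 members, Cdkn1a, Trp63 and Mdm4, and from each of 6 pathway lists the highest and lowest gene with at least 200 counts and those past 2-fold at that depth. Genes that paralogy, position or family ties to a member (Sesn2, Trp73, Wrap53) were added after their values were seen. The members and lists were chosen with earlier results of these data known. Alternatives used total counts, DESeq2 (version 1.42.0) size factors, upper quartile scaling, other filters and prior counts, thinning, counts divided by 2, removal of ribosomal RNA and mitochondrial genes, and lowess corrections (span 0.3). Intervals used scipy 1.17.1 and the lowess fits statsmodels 0.14.6, under Python 3.11.15.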

Additional observations from a re-analysis of the deposited data

How the results depend on the processing

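No paired analysis was possible because there was a single library per group, which also left no replicate to omit. The median log2 ratio of the members lay between -0.03 and 0.0056 over 12 alternatives, and the number of members past 1.5-fold or 2-fold was 0 in each direction under all of them. Of 108 values of single members under the alternatives, 2 left their interval for counting error, both when GC content was corrected for together with gene length, an alternative that was chosen after seeing the data. It put Phlda3 at 0.15 and Perp at -0.52. The correction for gene length alone put Mdm2 above 0, at 0.02. The cause was not tested in either case. GC content was taken from GENCODE M21 transcripts for 96.6% of the genes compared, and the correction from a genome was not run because no genome was given. The median of the activators lay between -0.06 and 0.0023 and that of the paralogs between -0.02 and 0.04, and the medians of the other 4 pathway lists kept their sign.

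The number of genes past a fold moved with the filter, because genes with few counts enter or leave. Without a filter there were 2679 genes past 2-fold higher and 2996 lower, and 5671 past 1.5-fold higher and 5052 lower. With at least 1 CPM in either library there were 836 past 2-fold higher and 658 lower, and 1730 past 1.5-fold higher and 1494 lower. Spread between cultures was not measured, so differences as small as those of the members cannot be told apart from differences between single cultures.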

Other observations

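An exact match to the NF-κB consensus was also counted in the promoter windows of the pathway lists, as a description with no test. Over all 27025 symbols with a window, 9.55% hold one in any of their windows. Among genes with a window, matches were found for 2 of 13 paralogs (Btg3 and Isg20), 0 of 11 regulators, 2 of 14 activators (Atr and Wrap53), 1 of 11 other arrest targets (Gtse1), 2 of 10 apoptosis targets (Bbc3 and Trp53i11) and 3 of 20 targets in repair, redox control and metabolism (Ak1, Gpx1 and Slc19a2). These genes were named after their values were seen, apart from Isg20. Their log2 ratios lay on both sides of 0, with Isg20 highest at 0.92 and Gpx1 lowest at -0.51. Among the listed genes past 2-fold with at least 200 counts, no window of Cdkn2a, Hipk2, Fas or Dram1 held a match, and Pmaip1 has no window in the table used.

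The p53 consensus was met at 17 or more positions by 7.20% of all symbols. In the lists this held for 3 of 13 paralogs, 1 of 11 regulators, 4 of 14 activators, 5 of 11 other arrest targets, 2 of 10 apoptosis targets and 4 of 20 targets in repair, redox control and metabolism.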
